A study of Homo sapiens with 2 samples.

Results

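Of the genes of DNA mismatch repair, 6 were followed in SW48, an established human colorectal cancer line that is microsatellite-unstable: MLH3, MSH3, MSH6, PMS1, PMS2 and EXO1. They were chosen by symbol, and all 12 probes annotated to them were taken, out of 48803 probes and 18852 named genes on the array. In the treated group, SW48_AKBA, the cells had been given AKBA (acetyl-11-keto-β-boswellic acid), which is a triterpenoid from the resin of Boswellia trees, at 20 µM for 6 days. For the control group, SW48_control, the treatment protocol names dimethyl sulfoxide (DMSO) at 0.1% as the vehicle and the source name calls the cells not treated. An effect of the vehicle therefore cannot be told apart from that of the compound. Both cultures were grown in the same serum-containing medium, and each group is 1 Illumina bead array of total RNA from 1 cell line. With 1 array per group there is no replicate check, no gene was tested, and higher or lower describes these 2 arrays.

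Mismatch repair removes the wrong bases and small loops that DNA polymerases leave behind. MutS proteins, of which MSH6 and MSH3 are subunits, recognise the error: MSH6 serves mainly for single mismatches and short loops, and MSH3 for longer loops. MutL proteins, among them PMS2, PMS1 and MLH3, couple recognition to the cutting of the new strand, and the exonuclease EXO1 then removes the stretch that holds the error. Cells that lack the pathway accumulate length changes in short repeats, the microsatellite instability by which such colorectal tumours are known. The common partner subunits of the MutS and MutL complexes were not analysed here.

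The bead signal of a probe is an intensity in arbitrary units. Each has a detection p, a p-value that sets its signal against the negative control beads of the same array, and values under 0.01 were taken as detected. The AKBA array was the dimmer one, with a mean signal of 365 against 425 on the control array, and it detected 11329 probes against 12389. The lowest detected signal was 141 on the AKBA array and 138 on the control array. Log2 differences and folds are therefore given after background correction and quantile normalization and run as AKBA minus control, or AKBA over control. Epithelial markers were present as the label states, with 7 of 10 detected, among them KRT8 at 1059 and 1056 on the AKBA and control arrays. The summed signal over all 10 was 16673 on the AKBA array and 17203 on the control array. After normalization 6 of the 7 lay above 0, as did 4006 of all 8639 genes detected on at least 1 array. The median log2 difference of the 7 was 0.35. Of them, 2 were higher by 1.5-fold or more, beside 2.91% of all detected genes, CLDN7 at 0.66 and KRT18 at 0.59. Lowest were CDH1, at 0.03, and CDX2, which alone lay below 0. CDX2 stood at -0.40, with signals of 1218 on the AKBA array and 1993 on the control array. KRT20, CDX1 and VIL1 were not detected by their brightest probes. Of fibroblast and endothelial markers 1 of 10 was detected, ACTA2, at 653 on the AKBA array and 797 on the control array. The sums over all 10, which include the background of the undetected ones, were 1356 and 1498 on the AKBA and control arrays. Of leukocyte markers 2 of 9 were detected, CD68 and LYZ, with sums over all 9 of 1357 and 1190 on the AKBA and control arrays. CD68 stood at 0.77 by its brightest probe and at -0.06 by its other detected probe, and PTPRC, the pan-leukocyte gene, was detected on neither array. The part of these markers in the results below was not tested.

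Most of the mismatch repair genes differed little between the arrays, and 1 probe of MSH3 stood apart. Of the 6 genes, 5 were detected on both arrays and PMS1 on neither. Of the 5, 1 lay at least 1.5-fold lower with AKBA, MSH3 by its brighter probe, as did 4.36% of all 8639 genes detected on at least 1 array. None of the 5 lay at least 1.5-fold higher, as did 2.91% of those genes, so that 1 of 5 passed 1.5-fold in either direction beside 7.27% of all. At 2-fold, 0 of the 5 passed, beside 0.347% lower and 0.405% higher of all detected genes. The median log2 difference of the 5 genes was -0.09, beside -0.02 over all detected genes. Of the 12 probes, 7 were detected on both arrays, 1 on the control array only and 4 on neither, and the deposited signal of all 7 was lower on the dimmer AKBA array.

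**Figure D1:**
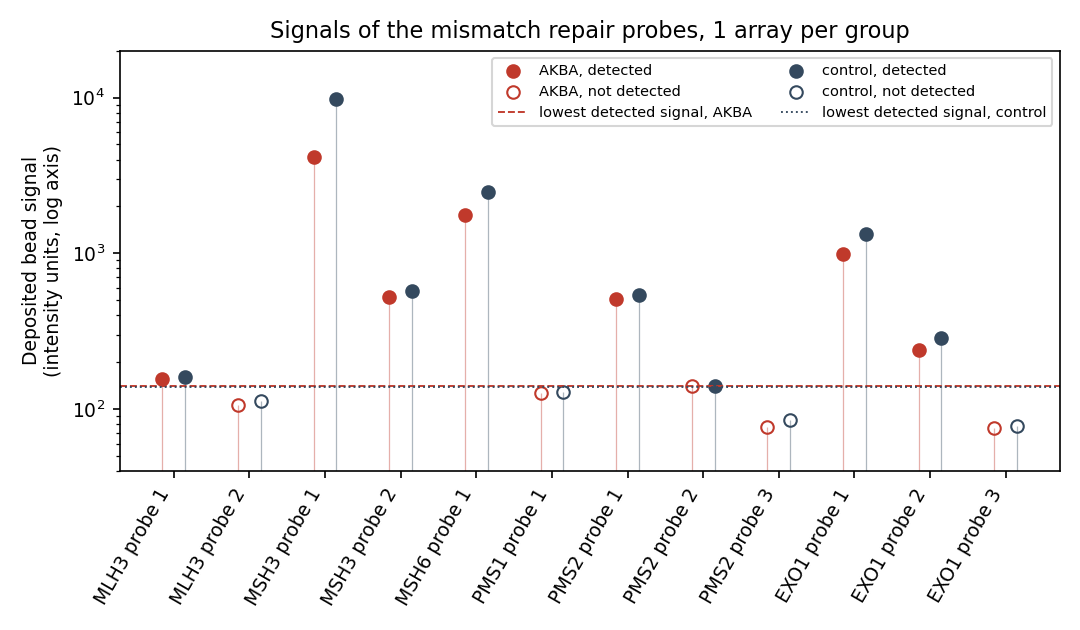
Deposited bead signals of the 12 mismatch repair probes (vertical log axis, intensity units), with the AKBA array at left and the control array at right of each probe. Filled points were detected at a detection p under 0.01, open points were not, and the horizontal lines mark the lowest detected signals of 141 on the AKBA array and 138 on the control array. MSH3 probe 1 has the widest gap, 4130 against 9767.

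MSH3, the subunit for loops of unpaired bases, was measured by 2 probes annotated to the same RefSeq transcript. The brighter probe (ILMN_2077130) read 4130 on the AKBA array and 9767 on the control array. After normalization its log2 difference was -0.96, that is 1.95-fold lower with AKBA. This was the thirteenth lowest value among the 7930 genes detected on both arrays, of which 0.151% lay lower. The detection p was 0 on both arrays, and the signals were far from the detection limit, at 29.2 times the lowest detected signal on the AKBA array and 70.6 times that on the control array.

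The other MSH3 probe (ILMN_1719471) did not share that difference. Its signal was 525 on the AKBA array and 568 on the control array, again with a detection p of 0 on both. Its log2 difference was 0.23, or 1.17-fold higher with AKBA, and 81.7% of the genes detected on both arrays lay lower. The 2 probes of the same transcript thus stood on opposite sides of 0, 1.19 apart on the log2 scale. Among 1677 genes for which both arrays detected at least 2 probes, the median span between the lowest and highest probe of a gene was 0.21 and the 99th percentile was 0.99. Spans as wide as that of MSH3 or wider occurred in 8 of those genes, MSH3 included, or 0.477%. Where along the transcript each probe lies was not analysed here. The call of MSH3 as lower therefore rests on 1 of its 2 probes: the mean over both was -0.37, short of 1.5-fold, and the second probe alone gave 0.23.

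**Figure D2:**
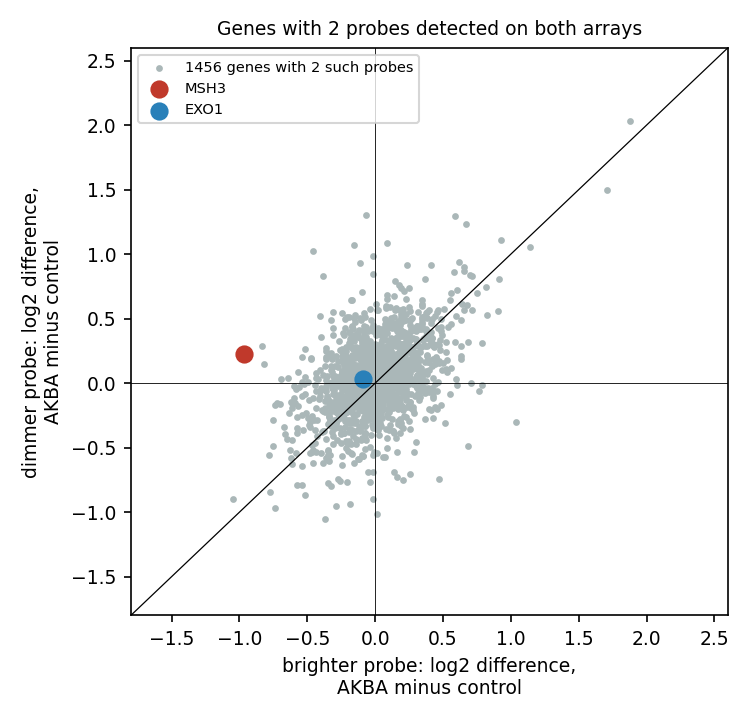
Log2 differences, AKBA minus control, of the brighter probe (horizontal axis) and the dimmer probe (vertical axis) of the 1456 genes that had exactly 2 probes detected on both arrays, 1 grey point per gene. The diagonal marks equal differences. MSH3 lies far to the left of the diagonal, at -0.96 and 0.23, and EXO1 lies near the origin, at -0.09 and 0.03.

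A probe lower by 1.5-fold or more was often not matched by its partner probes in the series. Of the 1677 genes, 71 had at least 1 such probe, 4 had every probe lower by that fold, 50 had every probe below 0, and 21 had another probe above 0. MSH3 was among the 21.

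MSH6, the MutS subunit that with its partner binds base mismatches, was measured by 1 probe, so no other probe checks it. Its signal was 1760 on the AKBA array and 2481 on the control array. The log2 difference was -0.19, or 1.14-fold lower with AKBA, and 24.2% of genes detected on both arrays lay lower. The gene FBXO11, which overlaps the end of MSH6 in the RefSeq annotation and encodes an F-box protein of a ubiquitin ligase, had nearly the same values, -0.18 and -0.17 with its 2 probes. These differences are smaller than the standard deviation of 0.30 over all genes detected on both arrays.

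PMS2 and MLH3, the MutL genes detected, lay above 0 after quantile normalization and below it with median scaling. PMS2, whose protein carries the nuclease that nicks the strand, read 512 on the AKBA array and 543 on the control array with its brightest probe (ILMN_1677887), a log2 difference of 0.26 on the normalized scale. A dimmer PMS2 probe (ILMN_2329744) had 140 and 139 on the AKBA and control arrays, with detection p of 0.0105 and 0.00922, and so passed the limit on the control array only. The third (ILMN_1670300) was not detected, at 76.3 on the AKBA array and 84.4 on the control array. PMS2 has near-identical copies in the genome, so its signal may hold RNA of those copies. The copy PMS2P2 had 156 and 161 on the AKBA and control arrays and a log2 difference of 0.26, and the copy PMS2CL had 205 and 254 and a difference of -0.06 by its brightest probe. Both of these copies lay within 1.5-fold. The signals of PMS2P2 were close to the lowest detected on each array, so the size of its difference is uncertain. Of 12 copies listed, only these 2 had named probes on the array.

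MLH3, a MutL subunit with a main role in meiosis and a lesser one in somatic repair, was close to the limit of detection. The probe for one of its transcripts (ILMN_2282282) had 155 on the AKBA array and 160 on the control array, with detection p of 0.00659 and 0.00395. The log2 difference of 0.27 rests on signals only 1.10 and 1.16 times the lowest detected on the AKBA and control arrays, so its size is uncertain. The probe for another transcript (ILMN_1693107) was detected on neither array, at 107 on the AKBA array and 113 on the control array. PMS1, a MutL subunit whose part in repair is minor, had 127 on the AKBA array and 128 on the control array, with detection p of 0.0119 and 0.0132. Both values miss the limit narrowly, so no fold is given for PMS1.

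EXO1, the exonuclease that digests the strand after recognition, had 2 detected probes, and they gave similar values. The brighter probe (ILMN_1673721) read 994 on the AKBA array and 1321 on the control array and a log2 difference of -0.09. The second (ILMN_2351916), for the same transcript, had 240 and 286 on the AKBA and control arrays and a difference of 0.03. Of the 1677 genes, 70.9% had a span as wide as the 0.12 between them or wider, EXO1 included. The probe for another transcript (ILMN_1719089) was not detected, at 75.1 on the AKBA array and 78.0 on the control array.

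**Figure D3:**
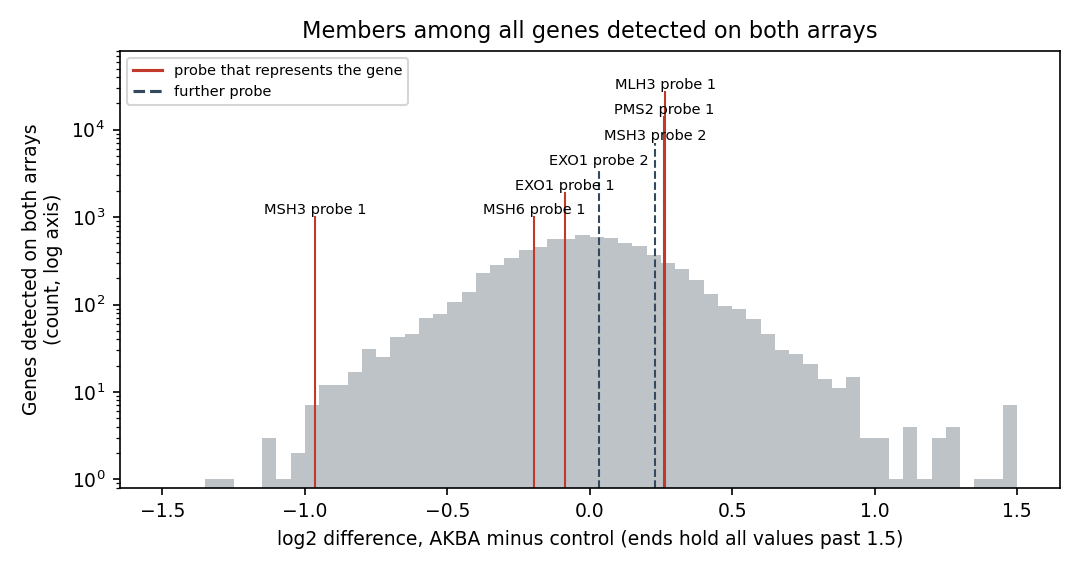
Distribution of log2 differences, AKBA minus control, over the 7930 genes detected on both arrays (grey bars, counts on a log axis), with the 7 mismatch repair probes detected on both arrays as vertical lines. Solid lines are the probes that represent a gene and dashed lines are further probes. MSH3 probe 1 stands in the lower tail at -0.96, and the other 6 lie between -0.19 and 0.27.

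The order of the genes by difference, from lowest, was MSH3 by its brighter probe, MSH6, EXO1, PMS2 and MLH3. The last pair differed by less than 0.01, and MSH6 and EXO1 by less than the pooled standard deviation of 0.23 between probes of one gene. The central 95% of all genes detected on both arrays lay between -0.60 and 0.59. The brighter MSH3 probe lay outside it and the other 6 probes detected on both arrays inside it.

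The signs of MLH3 and PMS2 depended on how the arrays were scaled. MSH6 and the brighter EXO1 probe stayed below 0 over 6 ways of processing, at -0.48 to -0.19 and at -0.40 to -0.08. Scaling to equal medians moved all detected genes to a median of -0.32, and with it MLH3 stood at -0.01, PMS2 at -0.05, EXO1 at -0.40 and MSH6 at -0.48. Relative to that median the genes kept their order and sign, with MLH3 at 0.31, PMS2 at 0.26, EXO1 at -0.08 and MSH6 at -0.16. The brighter MSH3 probe stood at -0.96 to -1.22 over 6 ways of processing, and the second probe at -0.09 to 0.23.

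**Figure D4:**
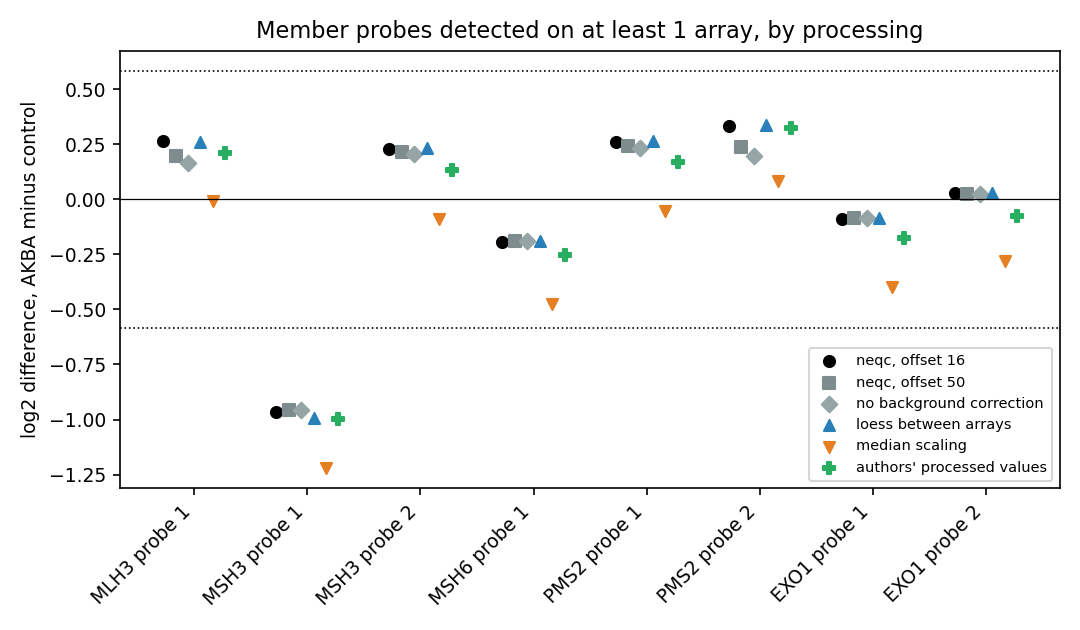
Log2 differences, AKBA minus control (vertical axis), of the 8 member probes detected on at least 1 array under 6 ways of processing (symbols). Dotted lines mark 1.5-fold in either direction. Only MSH3 probe 1 lies past 1.5-fold, under each of the 6, and median scaling moves all probes down.

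The genes with the most similar difference were looked up among 114 detected genes of repair, replication and coding repeat lists. Likeness here is the gap between log2 differences over these 2 arrays, which is a single number per gene. The nearest gene to MSH6 was the transcription factor E2F4, both at -0.19, and the nearest to EXO1 was RRM2, a subunit of ribonucleotide reductase, both at -0.09. PMS2 was nearest to its copy PMS2P2, both at 0.26, and MLH3 to the strand-break repair gene APTX, both at 0.27. The values of PMS2P2 and MLH3 rest on signals near the detection limit. For the brighter MSH3 probe the nearest was MCM8, at -0.63. Such neighbours are common in the middle of the distribution: 914 detected genes lay within 0.05 of MSH6 and 12 within 0.05 of MSH3.

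The clamp, loader and resynthesis factors were close to the rest of the series. They comprise the sliding clamp and its loader and the single-strand binding proteins. DNA polymerase delta and a DNA ligase, which fill and seal the gap, belong to the list as well. Of 13 detected genes of this list, 0 passed 1.5-fold in either direction, beside 7.27% of all detected genes. The median was 0.01 beside -0.02 over all detected genes. Lowest were the ligase LIG1, with signals of 539 on the AKBA array and 855 on the control array and a log2 difference of -0.38, and the catalytic polymerase subunit POLD1, at -0.32. Highest were the clamp loader subunits RFC3, at 0.21 and 0.00049 with its 2 detected probes, and RFC4, at 0.20 and 0.11. With median scaling, which moved all detected genes to -0.32, 2 of the 13 were lower by 1.5-fold or more. No share of all detected genes past that fold is given for median scaling, here or below. Counts under it therefore cannot be set against the series.

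Accessory factors of mismatch repair lay somewhat lower. Of 9 detected genes, 7 lay below 0, where 53.5% of all detected genes did. The median was -0.18, and -0.09 with the probes of a gene averaged. Relative to the median of all detected genes these were -0.15 and -0.07. The helicase gene MCM8 was the only one of the 9 lower by 1.5-fold or more after quantile normalization, beside 4.36% of all detected genes. That count was 3 with median scaling, 2 in the authors' processed values and 0 with the probes of a gene averaged. Its brightest probe had 788 on the AKBA array and 1494 on the control array and gave -0.63, while a second probe, at 183 and 244, gave -0.23. CHAF1A, the chromatin assembly subunit that follows replication and repair, stood at -0.54, with a signal of 183 on the AKBA array and 290 on the control array. FAN1, a nuclease that binds MutL proteins, stood at -0.02 and PARP1, the poly(ADP-ribose) polymerase, at 0.07.

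Genes of the G1/S transition and replication, with which several mismatch repair genes share their cell cycle timing, were lower as a group than the detected genes as a whole. Of 29 detected genes, 25 lay below 0, where 53.5% of all detected genes did, and the median was -0.17, beside -0.02. Of the 29, 1 was lower by 1.5-fold or more, beside 4.36% of all detected genes. It was the origin recognition gene ORC6, at -0.60, with signals of 7953 on the AKBA array and 13909 on the control array. The second ORC6 probe gave -0.02. The count of genes of this list lower by that fold was 9 with median scaling, and 0 after loess or with probes averaged. Thymidylate synthase, TYMS, stood at -0.55. The primase subunit PRIM2 stood on the other side, 1.83-fold higher, and its partner PRIM1 gave 0.37 and -0.08 with its 2 detected probes. MSH6 at -0.19 lay near the median of this list, and EXO1 at -0.09 lay above it.

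Other repair pathways had medians close to that of all detected genes. Base excision repair, which removes damaged single bases, had a median of -0.05 over 19 detected genes. None of the 19 was past 1.5-fold, beside 7.27% of all detected genes, and 3 were lower by that fold with median scaling. Its lowest members were the flap nuclease FEN1, at -0.47 and -0.26 with its 2 probes, and the uracil glycosylase UNG, at -0.46. Its highest were the abasic site nuclease APEX1, at 0.31 and 0.14 with its 2 probes, and the ligase LIG3, at 0.31 by its brightest probe. A dimmer LIG3 probe, detected on the control array only, gave 0.14.

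**Figure D5:**
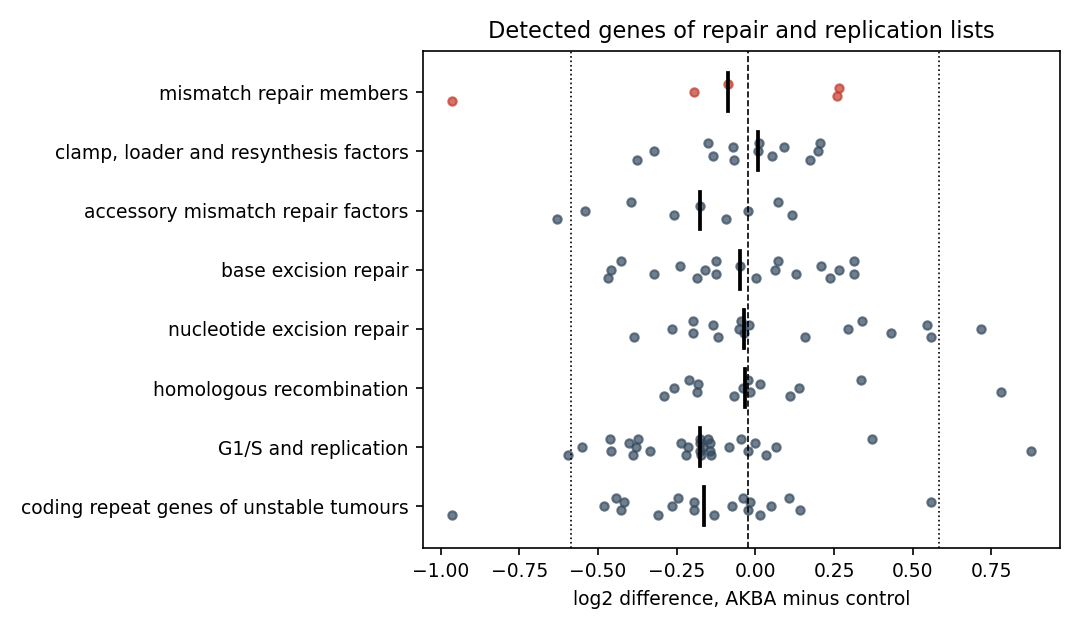
Log2 differences, AKBA minus control (horizontal axis), of the detected genes of the mismatch repair genes (red) and of 7 related lists (dark), 1 point per gene. Short black bars are list medians, the dashed line is the median over all detected genes, -0.02, and dotted lines mark 1.5-fold. The mismatch repair genes spread from -0.96 for MSH3 to 0.27 for MLH3.

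Neighbouring genes on the chromosome were followed as well. EIF2B2, a subunit of a translation initiation factor next to MLH3, stood at 0.24, and ACYP1, an acylphosphatase on the other side, at 0.07 and 0.27 with its 2 probes. ORMDL1, a regulator of sphingolipid synthesis beside PMS1, stood at 0.09 by its detected probe. RASGRF2 beside MSH3, RSPH10B beside PMS2 and WDR64 beside EXO1 were detected on neither array.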

How the data were processed

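Total RNA of SW48 cells was measured on Illumina bead arrays with Cy3-labelled cRNA, per the labels' protocols. The signal intensity the authors deposited is a mean bead signal per probe, neither background subtracted nor scaled, as the values show. The deposited detection p-value sets each probe against that array's negative controls. The authors' processed intensity values were linear in these signals, with slopes of 1.20 on the AKBA array and 1.00 on the control array; their software is unstated in the labels and files.

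Signals were processed with neqc of limma 3.58.1 in R 4.3.3 (background from the detection p, normexp offset of 16, quantile normalization, log2), and tabulated with Python 3.11.15, numpy 2.4.6, pandas 2.3.3 and matplotlib 3.10.9. By the platform annotation, 28098 probes had 1 gene symbol, 13 had several and 20692 had none; 28059 of those with 1 symbol were matched by Entrez identifier to RefSeq of GRCh38.p14. A gene was represented by its probe of highest mean normalized signal. Genes detected at p under 0.01 on at least 1 array were compared, with 1.5-fold as the limit for a count. Precision is limited by the number of arrays, 1 for each group. The pipeline was tested on simulated data. Named genes were all members with all their probes, and in each related list the 2 highest and 2 lowest genes detected on both arrays. The chromosomal neighbours and the list gene nearest in difference to each member were named as well. For 2 lists of cell type markers the detected members are named. KRT8, PTPRC and the undetected epithelial markers were chosen after their values were seen. The members and lists were chosen with earlier results of these data known. Alternatives were median scaling, loess, an offset of 50, no background correction, the authors' processed values floored at 16, detection limits of 0.05 and 0.001, no filter, both arrays only, the mean over probes and 2-fold. MSH3 by its second probe was added after seeing the data. Some genes, among them those of homologous recombination, are not reported by name here.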

Additional observations from a re-analysis of the deposited data

How the results depend on the processing

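The lower MSH3 value decided the count of 1 mismatch repair gene past 1.5-fold. That count was 0 when the probes of a gene were averaged, 0 at 2-fold, and 0 with MSH3 by its second probe, where MSH3 turned to 0.23. It was 1 under the other 9 alternatives. The median of the detected genes, -0.09, was -0.40 with median scaling, which moved all detected genes to -0.32, and 0.23 with MSH3 by its second probe. Its sign also turned, to 0.086, at a detection p under 0.05 and with no filter, where PMS1 entered. No paired analysis was possible because each group has 1 array. Members lower by 1.5-fold or more numbered 9 with median scaling and 0 after loess, with probes averaged or at 2-fold for G1/S and replication (otherwise 1). For accessory factors (otherwise 1) they numbered 3 with median scaling, 2 in the authors' processed values, and 0 with probes averaged or at 2-fold. For base excision repair (otherwise 0) they numbered 3 with median scaling, and 1 at a detection p under 0.05 or with no filter. For the clamp, loader and resynthesis factors (otherwise 0) they numbered 2 with median scaling. For genes with short coding repeats (otherwise 1) they numbered 6 with median scaling and 2 in the authors' processed values. They numbered 0 there with probes averaged, at 2-fold or with MSH3 by its second probe. For nucleotide excision repair and for homologous recombination (otherwise 0) they numbered 1 each with median scaling. No share of all detected genes is given beside the counts under median scaling. The difference of MLH3 comes from signals near the detection limit, so its size is uncertain, and with 1 array per group the spread between cultures is unknown.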

Other observations

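Genes with short coding repeats that are often mutated in microsatellite-unstable tumours had 20 detected members, MSH3 and MSH6 among them. Of the 20, 15 lay below 0, where 53.5% of all detected genes did. The median of the 20 was -0.16, or -0.10 with MSH3 by its second probe. Over the 18 genes of this list detected on both arrays the median was also -0.10. The rest were detected on the control array only and lay below 0. They passed the filter through the array where they were brighter, so their place below 0 is partly set by it. Of those detected on both arrays, the lowest besides MSH3 was OGT, the O-GlcNAc transferase, at -0.44 and -0.37 with its 2 probes. Highest of them were TAF1B, a subunit of the RNA polymerase I factor SL1, at 0.56 and 0.12 with its 2 probes, and SEC63, a translocation factor of the endoplasmic reticulum, at 0.14. SEC63 had signals of 144 on the AKBA array and 156 on the control array, near the detection limit, so the size of its difference is uncertain.

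Nucleotide excision repair, which removes bulky lesions, had 17 detected genes and a median of -0.03. GTF2H3, a subunit of the transcription and repair factor TFIIH, was 1.64-fold higher, with signals of 617 on the AKBA array and 493 on the control array. ERCC1, the partner of a repair nuclease, was 1.47-fold higher by its brightest probe, and its other 2 detected probes gave 0.43 and 1.18. The probe at 1.18 had 206 on the AKBA array and 140 on the control array. The latter was close to the lowest detected signal, so the size of 1.18 is uncertain. A further ERCC1 probe was detected on neither array. The nuclease gene ERCC5 was lowest at -0.39, and the damage sensor XPC stood at -0.26. Homologous recombination had 14 detected genes and a median of -0.03, with 1 gene higher by 1.5-fold or more and 0 lower by that fold. Of all detected genes, 2.91% were higher and 4.36% lower by that fold. The higher recombination gene was called by 1 probe, at 210 on the AKBA array and 170 on the control array. Its other probes, none of them detected on both arrays, gave 0.11 and 0.14. The alkylation reversal genes ALKBH2 and ALKBH3 stood at 0.14 and 0.03. Of the meiotic MutS genes, MSH4 was detected on neither array, and MSH5 had 143 on the AKBA array and 183 on the control array by its brightest probe, a difference of -0.21. The MSH5 signal on the AKBA array was close to the lowest detected there, so the size of this difference is uncertain.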
